A study of Homo sapiens with 4 samples.

Results

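The stretch described here is nt 3591 to 3850 of human 28S rRNA, the part of domain IV that follows expansion segment ES27L and holds the intersubunit helices 69 to 71. It was taken by position alone, in the sequence of the 45S precursor (RNA45SN5), of which 28S is nt 7925 to 12994. This gave 260 of the 15984 positions listed, 260 of the 5070 of 28S, and every one of them had a depth in all 4 libraries. The libraries were made from HEK293T cells, an embryonic kidney line, that stably overexpressed SIRT7 with a Flag tag and were used at passages 10 to 15. SIRT7 is a sirtuin of the nucleolus that removes acyl groups from proteins. Cells were separated into cytosol and nucleus, Flag-SIRT7 was immunoprecipitated from each fraction with anti-Flag gel, and the co-precipitated RNA was sequenced in 2 libraries per fraction. All groups carry the same overexpressed construct, and a mock precipitation, input RNA or untagged cells were not analysed here, so the values are RNA recovered and not enrichment. The labels number the libraries without saying that they come from separate cultures, and p-values therefore measure the spread between libraries, which may be technical. In bulk RNA of this kind, fewer rRNA molecules and less read coverage per molecule cannot be told apart.

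Domain IV of the large subunit rRNA forms much of the surface that meets the small subunit. Helix 69 is a short hairpin with a conserved, pseudouridine-rich loop that reaches across the interface to helix 44 of the small subunit rRNA, next to the decoding centre, and touches the tRNAs. Helix 71, a further hairpin of the same surface, makes another contact between the subunits, and helix 70 lies between them. The whole sequence is shown because depth changed many times over along it, and the capitals mark the hairpins of helix 69 and helix 71. It is the reference sequence of the deposited file, read 5′ to 3′ with T for U.

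28S nt 3591 to 3850: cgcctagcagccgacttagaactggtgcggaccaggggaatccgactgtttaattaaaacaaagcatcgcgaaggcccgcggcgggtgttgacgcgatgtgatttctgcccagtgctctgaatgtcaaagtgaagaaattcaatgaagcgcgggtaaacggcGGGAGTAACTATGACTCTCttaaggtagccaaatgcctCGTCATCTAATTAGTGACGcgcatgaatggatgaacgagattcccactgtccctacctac

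The helix 69 loop was found by the string TAACTATGA, at nt 3758 to 3766, and the conserved stretch after it by CTTAAGGTA, at nt 3771 to 3779. On either strand, each string occurred in 1 of 62 tiles of about 260 nt into which the listed sequences were cut, or 1.61% of them. The hairpins were located as inverted repeats of 6 base pairs, at most 1 of them G-U, around a loop of 3 to 9 nt. The 260 positions held 2 such repeats, at nt 3753 to 3771, which includes the helix 69 string, and at nt 3791 to 3809. The latter was taken as helix 71 because of its place after the helix 69 loop in the conserved core, and this assignment was not checked against an annotated structure. Such repeats were common, with a median of 5 per tile and at least 2 in 92.2% of the 51 tiles of the precursor, so a repeat alone does not identify a helix. The mean base composition differed from that of the flanks: G+C content was 88.8% in the 260 nt before, 50.8% in the 260 nt described and 66.2% in the 260 nt after.

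Depth is the number of reads that cover a position, and relative depth is that number divided by the library's own mean over everything listed. Library means were 189023 to 211717 reads per position. The depths of this stretch were far from the counting limit, with 18899 reads at the thinnest position of any library and 905295 at the deepest. A read adds to the depth of each base under it, and neighbouring positions therefore share reads and are not independent. Intervals for counting error were not computed for this reason.

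Along the 260 positions depth rose steeply from 5′ to 3′ in all 4 libraries. Relative depth at the first position, the lowest in every library, was 0.228 and 0.208 in the cytosol against 0.164 and 0.10 in the nucleus. The highest position reached 4.36 and 4.27 in the cytosol, at nt 3827, and 3.70 and 3.69 in the nucleus, at nt 3806. At the low end the nuclear libraries lay below both cytosolic ones and also differed from each other, while at the high end each pair lay close together.

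The span between lowest and highest position was 19.1-fold and 20.5-fold in the cytosol against 22.6-fold and 36.9-fold in the nucleus. Depth first passed 10% of its maximum at nt 3614 or 3615 in every library, and 90% at nt 3799 in both cytosolic libraries, nt 3798 in nuclear replicate 1 and nt 3781 in nuclear replicate 2. It passed 50% at nt 3728 and 3750 in the cytosol against nt 3698 and 3727 in the nucleus, a point that varied more between libraries. The 130 positions of the 3′ part held 79.0% and 79.9% of the stretch's depth in the cytosol against 76.8% and 80.0% in the nucleus. Log2 depths of the 260 positions correlated with Pearson's r of 0.990 to 0.9997 between any 2 libraries, a description only, since the positions share reads and one steep gradient. No position had the same depth in any 2 libraries.

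**Figure D1:**
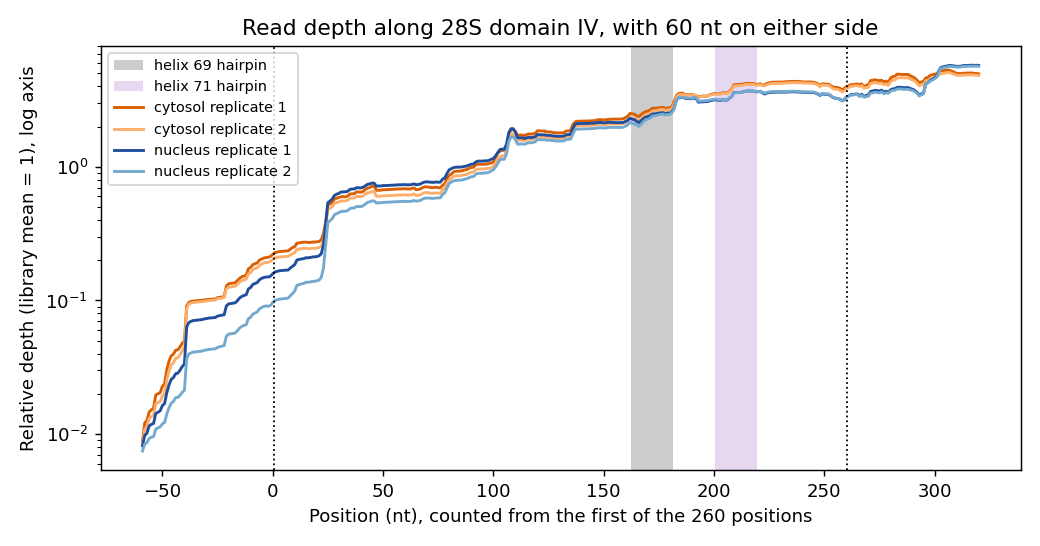
Relative depth (library mean = 1, log axis) against position, counted in nt from the first of the 260 positions, for each of the 4 libraries, with dotted lines at both borders and 60 nt on either side. Between the borders, depth climbs in every library from between 0.10 and 0.228 at the first position to at most 4.36, with a few abrupt rises. The helix 69 and helix 71 hairpins lie in the deep 3′ part. Beyond the 3′ border, from position 302 on, both nuclear libraries lie above both cytosolic ones.

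Changes of this size also occurred elsewhere in 28S. Between the first and the last 20 nt, relative depth changed 16.1-fold and 17.4-fold in the cytosol against 18.1-fold and 28.5-fold in the nucleus, a mean absolute change of 4.28 on the log2 scale. Counting the stretch itself, 3 of the 18 tiles of 260 nt that lie within 28S changed by at least as much from end to end. By mean relative depth the stretch ranked 10, 11, 10 and 10 among these 18 tiles in cytosolic replicates 1 and 2 and nuclear replicates 1 and 2, close to the middle.

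The climb was steepest at a few places but was not confined to them. The local step averaged over libraries, defined next, was positive at 209 positions of the stretch and negative at 51. A local step was measured as log2 of the mean depth of 5 positions from a position on over that of the 5 positions before it. The sequences around the 3 steepest rises lying more than 20 nt apart are shown because depth changed there within a few bases, and the capitals are the first 5 positions from the rise on.

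nt 3594 to 3633: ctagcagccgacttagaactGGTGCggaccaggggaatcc

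nt 3676 to 3715: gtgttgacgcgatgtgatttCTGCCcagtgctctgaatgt

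nt 3753 to 3792: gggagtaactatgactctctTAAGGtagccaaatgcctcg

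The steepest rise, at nt 3614, was also the place where the fractions differed most in step. Relative depth went from 0.285 to 0.509 in cytosolic replicate 1 and from 0.255 to 0.472 in cytosolic replicate 2. In the nucleus it went from 0.225 to 0.530 in replicate 1 and from 0.149 to 0.377 in replicate 2. The rise was therefore 1.79-fold and 1.85-fold in the cytosol against 2.36-fold and 2.54-fold in the nucleus, and the fractions did not overlap. On the log2 scale the mean step was 0.86 (cytosol) against 1.29 (nucleus). This difference of 0.43 is given without a test because the place was picked for its size.

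Among 4843 positions of 28S with a mean depth of at least 100 reads on both sides in every library, 110 (2.27%) had a difference of step at least as large in either direction, and 39 (0.805%) a mean step at least as steep upward. The rise begins 2 nt into ctggtgcggaccag, nt 3612 to 3625, 1 of 3 inverted repeats of 5 pairs without G-U in the stretch. The median tile of the precursor held 6 such repeats.

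The other rises were nearly equal in the fractions. At nt 3696 depth rose 1.37-fold and 1.40-fold in the cytosol against 1.37-fold and 1.42-fold in the nucleus. At nt 3773, just after the helix 69 hairpin, it rose 1.24-fold and 1.26-fold in the cytosol against 1.27-fold and 1.3-fold in the nucleus. More than 10 nt away from nt 3614, no position had steps that differed by more than 0.094 on the log2 scale between the fraction means. Falls within the stretch were small in all libraries, the steepest by the mean of the 4 libraries at nt 3844, with steps of -0.089 and -0.11 in the cytosol against -0.10 and -0.12 in the nucleus. The step most negative in the nucleus relative to the cytosol lay at nt 3701 and differed by -0.059.

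**Figure D2:**
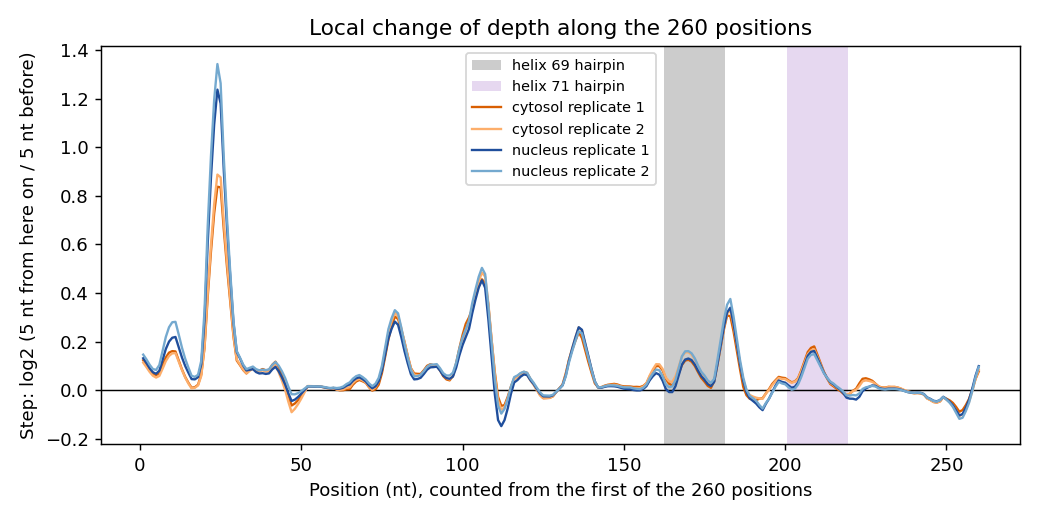
Step in depth at each of the 260 positions (log2 of the mean of 5 nt from the position on over the mean of the 5 nt before), 1 line per library, with position counted from the first of the 260. The tallest peak, at position 24 (nt 3614), reaches 0.84 and 0.89 in the cytosolic and 1.24 and 1.34 in the nuclear libraries, and the lines nearly coincide at the later peaks.

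The comparison of the fractions asked how much of the rRNA recovered with SIRT7 came from this interface sequence in each compartment. As a share of all depth, the stretch held 3.42% and 3.27% in the cytosolic libraries, against 3.11% and 2.95% in the nuclear libraries. The nuclear libraries both lay below the cytosolic ones, at 3.03% ± 0.119 against 3.34% ± 0.104 (SD, n = 2), and the two-sided exact permutation test gave p = 0.33, the lowest value possible with 2 libraries in each group. As 1 tile the stretch had a log2 difference, nucleus minus cytosol, of -0.14 (SE 0.05, 95% interval -0.29 to 0.01), which did not pass the test (adjusted p = 0.0858 in limma). Of all 55 tiles tested, 31 (56.4%) passed in one direction or the other, and 11 of the 18 tiles of 28S had a more negative difference than this one.

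The sign of that small difference turned with the scale. As a share of 28S depth the stretch held 4.63% and 4.57% in the cytosol against 4.87% and 4.64% in the nucleus, now with both nuclear values above (4.60% ± 0.0447 and 4.76% ± 0.159, SD, n = 2, exact permutation p = 0.33). By length the stretch is 5.13% of 28S. Scaled to the depth of 28S, the log2 difference of the tile was 0.047 (adjusted p = 0.365 in limma), and scaled by the median of ratios it was -0.38 and passed (adjusted p = 0.0149 in limma). Those scalings moved log2 differences of all tiles by 0.19 and by -0.24, before the pseudocount. Calls over all tiles were 8 lower and 23 higher, against 1 and 26 with scaling to 28S and 18 and 19 with the median of ratios.

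Relative to the library mean, the 3 windows at the 3′ end of the stretch, from the hairpin taken as helix 71 onward, passed as lower in the nucleus. No window passed as higher. The share called lower lay between the share over all windows and the larger share within 28S. The stretch was divided into 13 windows of 20 nt, and 3 of 13 (23.1%) passed as lower and 0 as higher (3 lower and 0 higher at an unadjusted limma p under 0.05). Over all 659 windows tested, 17.6% passed as lower and 37.2% as higher, or 116 and 245 of them. That split was 65 and 271 with scaling to 28S and 165 and 181 with the median of ratios. Among the 253 windows within 28S 40.7% passed as lower. Log2 differences had a median of -0.10 over the 13 windows, 0.01 over all windows tested and -0.20 over those of 28S. The count of 3 changed with the scaling. It was 0 with scaling to 28S or to the stretch's own mean and 5 with the median of ratios. A replicate block gave 2, the fit without a variance trend 4 and a minimum depth of 100 also 4. Over all windows the shares passing as lower were then 17.9%, 15.9% and 28.8%. With a library left out, the lone library of its fraction is assumed to vary like the others. The 3 windows then did not all pass, while their differences stayed at -0.18 to -0.16, -0.24 to -0.21 and -0.25 to -0.22.

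The last window, nt 3831 to 3850, had a relative depth of 4.1 and 4.0 in the cytosol against 3.43 and 3.44 in the nucleus. Both nuclear values lay below both cytosolic ones, with the fractions far more apart than the libraries within them. It was 1.18-fold lower in the nucleus (log2 difference -0.24, SE 0.04, adjusted p = 0.0142 in limma). The window before it, nt 3811 to 3830, was the deepest of the 13, with 4.28 and 4.2 in the cytosol against 3.61 and 3.65 in the nucleus. Again the fractions did not overlap, and the difference was -0.22 (SE 0.04, adjusted p = 0.0159 in limma). Scaled to 28S, the differences of these windows were -0.047 and -0.033 and did not pass (adjusted p = 0.299 and 0.462 in limma).

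The window at nt 3791 to 3810 holds the hairpin taken as helix 71 and lies outside the rule for named windows, so it is named here because it passed. Its relative depth was 3.93 and 3.87 in the cytosol against 3.46 and 3.47 in the nucleus, without overlap. The difference was -0.17 (SE 0.04, adjusted p = 0.0326 in limma), or 1.13-fold lower. With a pseudocount of 0.00001 its adjusted p was 0.0505 and with a replicate block 0.0599, both in limma. Scaled to 28S its difference was 0.020 (adjusted p = 0.663 in limma).

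Helix 69 itself did not pass. The window with its loop, nt 3751 to 3770, had 2.61 and 2.48 in the cytosol against 2.38 and 2.28 in the nucleus. Both nuclear libraries were lower, by a log2 difference of -0.13 (SE 0.06, 95% interval -0.29 to 0.04, adjusted p = 0.139 in limma). The following window, nt 3771 to 3790, which begins with the last base of the hairpin and leads toward helix 70, had 3.40 and 3.35 in the cytosol against 3.13 and 3.16 in the nucleus. Its difference was -0.10 (SE 0.04, 95% interval -0.22 to 0.02, adjusted p = 0.116 in limma), and without a variance trend it passed (adjusted p = 0.0213 in limma). Both windows turned to a positive difference, 0.063 and 0.087, when scaled to 28S, and neither passed then. With the median of ratios the loop window had -0.35 and passed (adjusted p = 0.0396 in limma).

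Set against the stretch's own mean, the hairpins had nearly the same depth in both fractions. The helix 69 hairpin stood at 1.26 and 1.25 times that mean in the cytosol against 1.26 and 1.28 times in the nucleus. The helix 71 hairpin stood at 1.87 and 1.92 times in the cytosol against 1.80 and 1.91 times in the nucleus. The fractions overlapped for both hairpins on this scale.

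The first window, nt 3591 to 3610, was the shallowest and had the most negative difference of the 13, yet also the widest interval. Its relative depth was 0.255 and 0.230 in the cytosol, 0.189 in nuclear replicate 1 and 0.121 in nuclear replicate 2. Both nuclear values were lower, but they differed from each other more than nuclear replicate 1 differed from cytosolic replicate 2. The log2 difference was -0.64 (SE 0.30, 95% interval -1.48 to 0.20, adjusted p = 0.144 in limma). Without nuclear replicate 1 it was -0.95, and without nuclear replicate 2 it was -0.34. Without cytosolic replicate 1 it was -0.57, and without cytosolic replicate 2 it was -0.71. With all 4 libraries the window passed with a pseudocount of 0.00001 (adjusted p = 0.0200 in limma), with a minimum depth of 100 (0.0132) and with the median of ratios (0.0434).

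The remaining 7 windows, nt 3611 to 3750, overlapped between the fractions. Their mean relative depth ran from 0.521 to 2.16 in the cytosol and from 0.486 to 2.05 in the nucleus. Log2 differences lay between -0.12 and -0.0031, with adjusted p-values of 0.444 to 0.989 in limma and intervals that reached from -0.70 to 0.48. The widest intervals belonged to the windows at the 5′ end of this run, so differences of that size in either direction were not detectable there with 2 libraries per fraction.

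**Figure D3:**
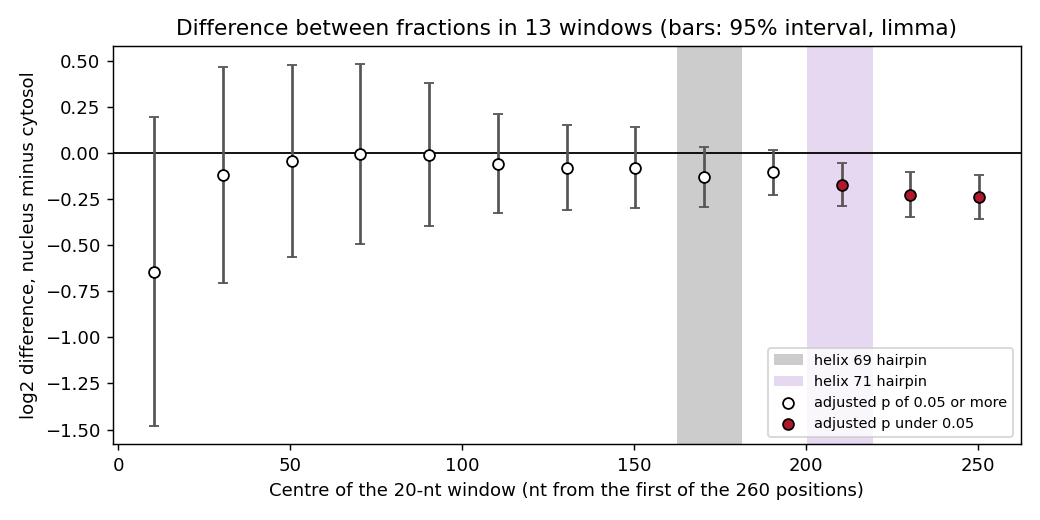
Log2 difference in relative depth, nucleus minus cytosol, in the 13 windows of 20 nt, plotted at each window's centre (nt from the first of the 260 positions), with 95% intervals of the limma fit and filled points where the adjusted p was under 0.05. The 3 filled points are the last 3 windows, at -0.17 to -0.24, and the first window has the widest interval, from -1.48 to 0.20.

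Position by position, the fractions separated in 2 runs. Both nuclear relative depths lay below both cytosolic ones at 122 of 260 positions, 23 of them from nt 3591 to 3613 and 99 from nt 3752 to 3850. At the other 138 positions the fractions overlapped, and at no position were both nuclear values above. The share of 46.9% compares with 33.3% over the 13199 positions that had 10 or more reads in 2 or more libraries, and with 60.6% over those of 28S. The first run ended directly before the rise at nt 3614, and the second began 1 nt before the helix 69 hairpin.

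By mean depth, the fractions differed least when the stretch was set against the rest of 28S, and more when it was set against 18S or its own flanks; by medians over positions they differed least against the sequence before it. The log2 ratio of its mean depth over that of the rest of 28S was -0.15 and -0.18 in the cytosol against -0.079 and -0.15 in the nucleus. The nuclear values were higher by 0.050 in the mean (0.17 with medians over positions), with nuclear replicate 2 close to the cytosolic pair. The log2 ratio over 18S was -0.040 and -0.23 in the cytosol against -0.59 and -0.71 in the nucleus, so that the stretch was 0.91 times as deep as 18S in the cytosol against 0.64 times in the nucleus. The fractions did not overlap in any of these ratios, and each had the lowest possible exact permutation p of 0.33, as did both ratios to the flanks.

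In mean depth, the 260 nt after the stretch, nt 3851 to 4110, separated the fractions more than the stretch did. Their relative depth was 3.74 and 3.83 in the cytosol against 2.39 and 2.31 in the nucleus. The stretch over these positions gave log2 ratios of -0.83 and -0.93 in the cytosol against -0.32 and -0.35 in the nucleus, 0.55 higher. With medians over positions this was 2.59. The stretch was thus 0.54 times as deep as the sequence after it in the cytosol against 0.79 times in the nucleus. The sequence after it was not lower in the nucleus throughout. From position 302 to 320, counted from the first of the 260, both nuclear libraries lay above both cytosolic ones. At position 315 relative depth was 5.02 and 4.87 in the cytosol against 5.73 and 5.64 in the nucleus.

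The 260 nt before it, nt 3331 to 3590, were shallow, with relative depths of 0.0274 and 0.0252 in the cytosol against 0.0203 and 0.0132 in the nucleus. The stretch was 78.2 times as deep in the cytosol against 113.8 times in the nucleus. The log2 ratios were 6.26 and 6.32 in the cytosol against 6.56 and 7.10 in the nucleus. The mean difference of 0.54 became 0.27 without nuclear replicate 2, 0.81 without nuclear replicate 1 and 0.018 with medians over positions. The border to these positions is also the border in G+C content given above, and its part in the depths was not tested.

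**Figure D4:**
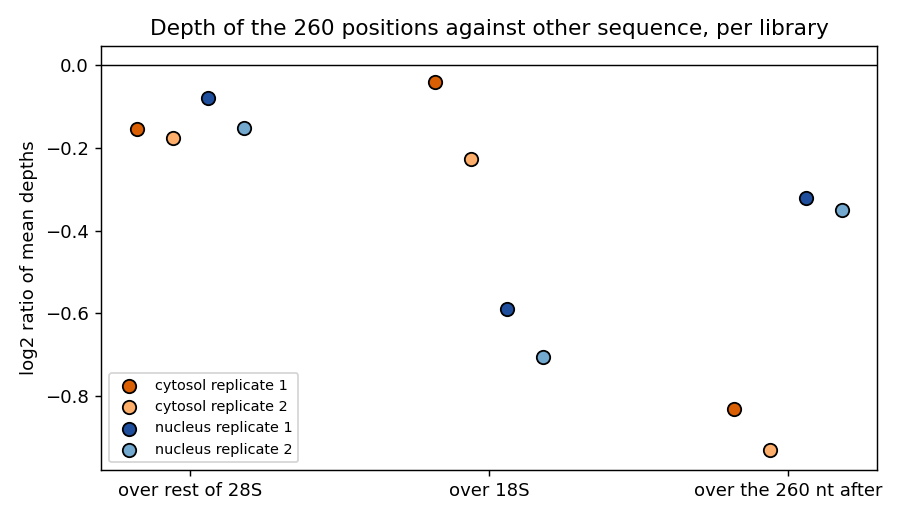
Log2 ratio of the mean depth of the 260 positions over that of the rest of 28S, of 18S and of the 260 nt after, 1 point per library. The nuclear points lie slightly above the cytosolic ones for the rest of 28S (difference 0.050), below for 18S (-0.52) and above for the sequence after (0.55).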

How the data were processed

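Per the labels' protocols, RNA was released from anti-Flag gel with proteinase K and made into directional libraries. The tools listed in the submitters' processing notes are cutadapt 1.5, Bowtie2 2.2.6 and SAMtools; for settings, read length, filters and strand the sources used here give nothing. The deposited values are coverage signal, per the file headers: whole-number read depth at each position of the reference sequences, not scaled between libraries. Such coverage merges the many rDNA copies. The 260 positions are 11515 to 11774 of the precursor, and the place of 28S in it (nt 7925 to 12994) was taken from the RefSeq gene table, which names no chromosome for it.

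The listed sequences were cut into 20-nt windows (799, of which 659 were tested) and 260-nt tiles (62, of which 55 were tested), counted in the precursor from the first of the 260 positions. Windows or tiles averaging 10 or more reads in 2 or more libraries entered, all in one fit per size, two-sided limma 3.58.1 in R 4.3.3 (eBayes with a variance trend) on log2(relative depth + 0.01), p-values being adjusted by Benjamini-Hochberg over all windows or tiles (threshold 0.05). Differences are on that scale. Single values were compared with exact permutation tests (scipy 1.17.1). The fit was tested on simulated data. Alternatives were other scalings, pseudocount, medians, depth minimum, variance trend, windows, a replicate block and leaving out each library. Named windows were the deepest, the shallowest, the 3 with the largest difference in each direction (none was positive) and those with the strings of helix 69. The stretch, lists and rules were chosen with earlier results of these data known.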

Additional observations from a re-analysis of the deposited data

How the results depend on the processing

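The stretch as 1 tile kept its negative difference under every alternative but scaling to 28S (0.0473), and passed only with the median of ratios (-0.38). Leaving out each library gave -0.18 to -0.10. Its share of depth differed by -0.31 percentage points, by 0.16 when taken of 28S depth, and by -0.40 to -0.23 with a library left out. The number of called windows was 5 with the median of ratios and 0 with scaling to 28S or to the stretch. With a library left out, the 3 windows called in the main setting did not all pass. With 10-nt windows 23.1% were called lower, against 18.1% over all such windows. With 20-nt windows shifted by 10 nt the share was 16.7%, below the 18.1% over all such windows, whereas the main setting had 23.1% against 17.6%. Scaling to 28S turned nt 3751 to 3770 to 0.0626, nt 3771 to 3790 to 0.0868 and nt 3791 to 3810 to 0.0197, and scaling to the stretch turned the first 2 of these to 0.0152 and 0.0393. The cause of these changes was not tested beyond the shift of each scaling, 0.19 for 28S, 0.14 for the stretch and -0.22 for the median of ratios over windows. The ratios to other sequence kept their direction with a library left out, at 0.0144 to 0.0861 over the rest of 28S, -0.61 to -0.42 over 18S, 0.50 to 0.60 over the sequence after and 0.27 to 0.81 over that before, and with medians over positions, at 0.17, -0.47, 2.59 and 0.0178 in the same order. The replicate numbers of the labels are not stated to pair libraries, and deviations of same-numbered libraries correlated with r = 0.092 over 659 windows. With a replicate block 2 windows were called in place of 3, nt 3791 to 3810 being lost (adjusted p = 0.0599 in limma), and the tile had an adjusted p of 0.0557 in limma. Over all tiles, 31 were called in the main setting, 20 without a variance trend and 19 without cytosolic replicate 1. Every position of the stretch had 18899 reads or more. The pseudocount of 0.01 stood for 1890 to 2117 reads per position, depending on the library. In the shallow first window, nt 3591 to 3610, a pseudocount of 0.00001 moved the difference from -0.64 to -0.68, and the window then passed (adjusted p = 0.0200 in limma).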
